A study of Homo sapiens with 4 samples.

Results

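The integrated stress response was followed through 10 genes, taken by symbol from a table of 56832 genes measured in A375, a long-established line of human melanoma cells. They comprise the transcription factors ATF4, ATF3, DDIT3 and CEBPB, the intracellular outputs CHAC1, TRIB3, SESN2 and DDIT4, and the secreted outputs GDF15 and FGF21. The rule takes them by name, without a cutoff on any value, but the names were chosen with earlier results of these data known. Wild-type A375 cells kept in DMEM with 10% serum received 1 mM octanoate, a saturated medium-chain fatty acid, or the solvent isopropanol, for 48 h on 100 mm plates, and 2 RNA-seq libraries were made per group. Both groups came from the same line, and the vehicle group carried isopropanol, so no untreated cells were compared. The labels do not say whether the 2 libraries of a group came from separate cultures. All p-values therefore rest on the spread between these libraries, which may be technical. In the fit reported here that spread was mostly shared across genes, so a p-value says little of a gene's own spread.

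The integrated stress response is a pathway in which several kinases, each sensing a different stress, phosphorylate the translation initiation factor eIF2alpha. Bulk protein synthesis then falls, while ATF4 messenger RNA, which carries upstream open reading frames, is translated more. ATF4 protein pairs with partners such as C/EBP family proteins and switches on genes for amino acid supply, redox balance, feedback and, under lasting stress, cell death. Because ATF4 is controlled largely at translation, its RNA level is one readout among several, and the RNA of its target genes is commonly read beside it.

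ATF4 with a C/EBP partner binds the C/EBP-ATF response element, whose core was searched as TGATGNAA, read on the other strand as TTNCATCA. Windows from 250 bases before to 50 bases after each RefSeq transcription start (GRCh38.p14) were read on both strands. The core was found in windows of 3 of the 10 genes, namely ATF3, CHAC1 and FGF21, and in 4.46% of all 27305 genes with a window. In the other 7 genes these letters were not in the window, which says nothing of sites elsewhere. Of 37 ATF4 target genes outside the 10 that had a window, 13 (35.1%) held the core, among them ASNS, the gene of asparagine synthetase. The stretches below are shown because they hold the core, in capitals, in the 3 genes and in ASNS, each written 5′ to 3′ on the gene's own strand.
ATF3, chr1:212565205-212565234, plus strand: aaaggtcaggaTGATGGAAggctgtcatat
CHAC1, chr15:40953251-40953280, plus strand: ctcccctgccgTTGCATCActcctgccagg
FGF21, chr19:48755459-48755488, plus strand: aaacaccaggaTTGCATCAgggaggaggag
ASNS, chr7:97872458-97872487, minus strand: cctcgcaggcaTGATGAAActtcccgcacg
The core lay 191 bases before the start in ATF3, 209 in CHAC1, 54 in FGF21 and 68 in ASNS. CHAC1 and FGF21 carried the same 8 letters on the other strand, while ATF3 and ASNS carried the core as written and differed from each other in the N. The CHAC1 and ASNS stretches also fell inside an exon of a longer transcript in GENCODE 29. The cAMP response element TGACGTCA, which reads the same on both strands and is bound by ATF and CREB family dimers, was found in 2.25% of all genes and in 0 of the 10. A match is a description of the sequence, and binding was not measured.

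The libraries held between 67785956 and 78005035 reads, recovered from the deposited normalised counts. Replicates of a group differed by more than sampling noise. The chi-square per degree of freedom was 4.77 for the vehicle pair and 6.50 for the octanoate pair. It was 54.3 between vehicle 1 and octanoate 1, the only pair across groups that was computed. Of the melanoma markers, SOX10 lay between 34072 and 41363 normalised counts and the pigment gene TYR between 1.93 and 3.93. Of the 12 melanoma markers tested, 3 were called higher and 3 lower. MITF (-0.48), S100B (-1.12), NGFR (-0.63) and AXL (0.42) kept their calls with any 1 library left out, while PMEL (0.55) lost its call whichever library was left out and MCAM (0.19) without vehicle 2, octanoate 1 or octanoate 2. The 6 blood and immune markers summed to between 27.9 and 37.3, with CD3E at 2.91 or less. The 4 endothelial markers summed to 576 and 580 under vehicle and 787 and 792 under octanoate, with PECAM1 called higher and also VWF, whose call was lost whichever library was left out. The 6 fibroblast markers summed to 2389 and 2415 against 2078 and 2199, with COL1A1 and COL1A2 called lower. The COL1A2 call was lost without vehicle 2 or octanoate 1. The 6 epithelial markers, mostly KRT18, summed to 12911 and 14965 against 11476 and 11984. Of these, KRT14 was called lower, from 1110 and 942 normalised counts under vehicle to 266 and 218 under octanoate (log2 difference -2.08). The part of these markers in the results was not tested. The genes were compared by limma on log2(normalised count + 1), with Benjamini-Hochberg adjustment over all 20250 genes whose mean normalised count reached 10. Calls were made below an adjusted p of 0.05. In a fit with 1 library left out, 1 group holds 1 library. Calls in such a fit, here and below, rest mainly on variance shared across genes and say little of a gene's own spread.

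Of the 10 genes, 9 passed the filter, all 9 were called higher under octanoate and 0 lower. The background is large, since 29.9% of all tested genes were called, 16.2% higher and 13.7% lower. With a minimum mean of 50, 5764 of 15069 genes were called in either direction. The 9 genes averaged between 600 and 32487 normalised counts, and the share called among genes at such levels was not computed. All 10 genes had both octanoate libraries above both vehicle libraries, a separation in one direction or the other that 63.1% of tested genes also showed. The median log2 difference of the 9 was 0.57, against 0.01 over all tested genes, whose 5th and 95th percentiles lay at -0.63 and 0.79. GDF15, CHAC1 and ATF3 lay above that 95th percentile. They were called higher with a rise of at least 2-fold, as were 540 tested genes in all. The other 6 tested genes rose by between 1.32-fold and 1.52-fold and lay inside the range of most genes. These counts describe this list only. In RNA from whole plates, a higher level in every cell and a larger share of cells with a high level cannot be told apart.

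**Figure D1:**
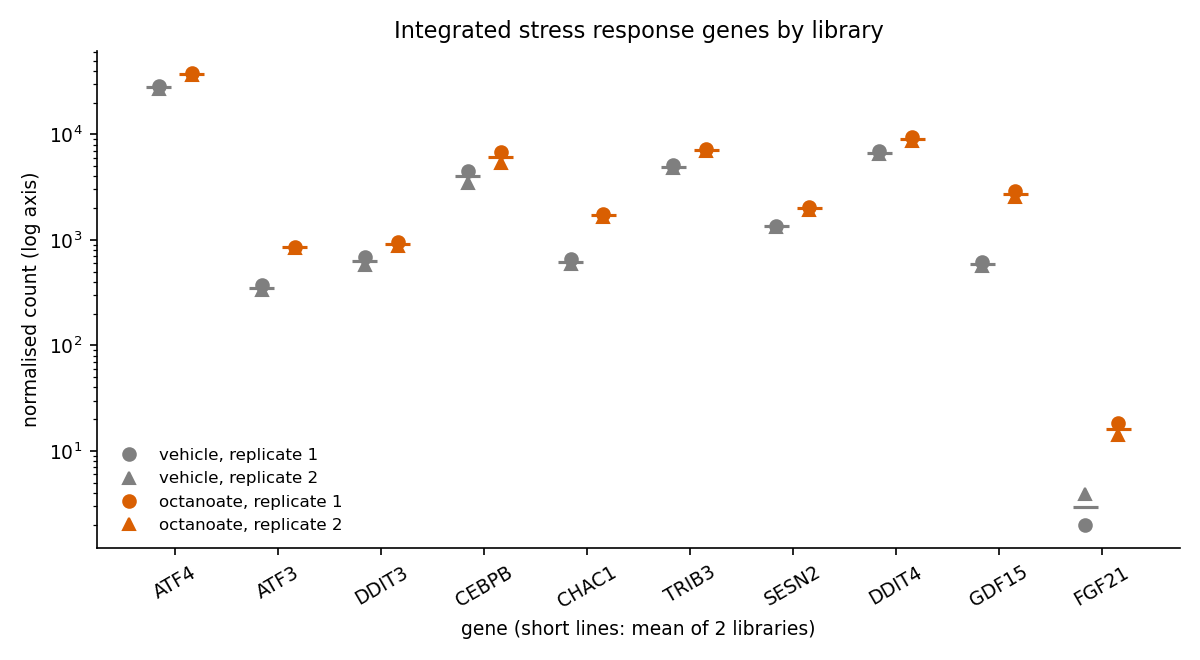
Normalised counts (log axis) of the 10 genes in each library, with vehicle in grey and octanoate in orange, circles for replicate 1, triangles for replicate 2 and short lines for the mean of the 2 libraries of a group. For each gene both octanoate libraries sit above both vehicle libraries, with the widest step in GDF15 and FGF21 and the lowest counts in FGF21, between 1.96 and 18.3.

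ATF4, the central transcription factor of the response (chr22:39519695-39522685, plus strand, GRCh38, GENCODE 29), had 28967 and 27091 normalised counts under vehicle and 37801 and 36088 under octanoate. Both octanoate libraries were higher, and the groups did not overlap. The rise was 1.32-fold (95% interval 1.21 to 1.43), a log2 difference of 0.40 ± 0.06 (SE, n = 2 libraries per group; limma adjusted p = 1.23e-05), the smallest among the 9. ATF4 shares 1056 bases at 97.5% identity with the pseudogene ATF4P3, but that pseudogene was counted at 9.82, 12.6, 24.1 and 10.8 in the same library order, far below ATF4. A second copy, ATF4P4, shares 1125 bases at 96.2% and was not analysed here.

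ATF3, a stress-induced factor that dimerises with JUN and other basic leucine zipper proteins (chr1:212565334-212620777, plus strand), had 372 and 333 normalised counts under vehicle and 860 and 833 under octanoate. The octanoate pair was well above the vehicle pair, with the members of each pair close to each other. ATF3 rose 2.4-fold (2.10 to 2.74; log2 difference 1.26 ± 0.09, limma adjusted p = 1.67e-10), the largest rise among the 4 transcription factors. Its 95% interval on the log2 scale, 1.07 to 1.45, lay wholly above those of ATF4 (0.28 to 0.52), DDIT3 (0.33 to 0.71) and CEBPB (0.41 to 0.80).

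DDIT3 encodes CHOP, a C/EBP family protein linked to cell death under lasting stress (chr12:57516588-57521737, minus strand). It had 689 and 583 normalised counts under vehicle and 949 and 872 under octanoate. The groups were apart, and the log2 gap between the vehicle libraries, 0.24, was wider than that of ATF4, 0.10. The rise was 1.43-fold (log2 difference 0.52 ± 0.09, limma adjusted p = 9.21e-05). The standard error from its own libraries, without sharing across genes, was 0.13. Exons of MARS, the methionyl-tRNA synthetase gene, cover 355 bases (27.2%) of the exon length of DDIT3 from the opposite strand. MARS had 27411, 25891, 31145 and 30805 normalised counts and was higher by 0.22 as a log2 difference (limma adjusted p = 0.00554). Whether the authors' counting used the strand of the reads is not given in the sources used here, so reads of the shared bases cannot be assigned.

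CEBPB, a partner of ATF4 and a single-exon gene (chr20:50190734-50192689, plus strand), had 4515 and 3476 normalised counts under vehicle and 6772 and 5380 under octanoate. Replicate 1 was well above replicate 2 in both groups, and the groups did not overlap. The coefficient of variation was 18.4% under vehicle and 16.2% under octanoate, the widest of the 9 tested genes in each group. CEBPB rose 1.52-fold (log2 difference 0.61 ± 0.09, limma adjusted p = 2.12e-05), but the standard error from its own 4 libraries, without sharing across genes, was 0.25. In the authors' deposited table its adjusted p was 0.0585, and the call was also lost in limma without the filter (adjusted p = 0.103) and with a variance prior without a trend (adjusted p = 0.15). The log2 difference was 0.42 without vehicle 2, 0.44 without octanoate 1, 0.77 without octanoate 2 and 0.80 without vehicle 1. The antisense gene CEBPB-AS1 covers 231 bases (11.8%) of its exon length and was not analysed here.

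CHAC1 encodes an enzyme that breaks down glutathione and is a well-known output of ATF4 (chr15:40952962-40956519, plus strand). It had 655 and 587 normalised counts under vehicle and 1740 and 1664 under octanoate. The octanoate libraries lay close together and far above the vehicle pair. CHAC1 rose 2.74-fold (2.45 to 3.07; log2 difference 1.46 ± 0.08, limma adjusted p = 6.75e-13), the widest step of the 4 intracellular outputs, and 1.02% of tested genes rose more. Its interval on the log2 scale, 1.29 to 1.62, overlapped that of ATF3.

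TRIB3, a pseudokinase that feeds back on ATF4 and CHOP (chr20:362835-397559, plus strand), had 5079 and 4805 normalised counts under vehicle and 7236 and 6963 under octanoate. The groups were apart with little spread inside either. TRIB3 rose 1.44-fold (log2 difference 0.52 ± 0.06, limma adjusted p = 2.00e-07). SESN2, a leucine-sensing sestrin that restrains TOR complex 1 (chr1:28259527-28282491, plus strand), had 1353 and 1325 normalised counts under vehicle and 2064 and 1926 under octanoate. Here too the groups stood clear of each other. SESN2 rose 1.49-fold (log2 difference 0.57 ± 0.07, limma adjusted p = 6.20e-07).

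DDIT4, also called REDD1, acts through the TSC complex to restrain TOR complex 1 (chr10:72273920-72276036, plus strand). It had 6876 and 6502 normalised counts under vehicle and 9462 and 8685 under octanoate. All octanoate values were above all vehicle values. DDIT4 rose 1.36-fold (log2 difference 0.44 ± 0.06, limma adjusted p = 3.88e-06). The antisense gene DDIT4-AS1 covers 847 bases (41.2%) of its exon length and was not analysed here, so with strand use not given the share of reads that came from it is unknown.

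GDF15 encodes a secreted stress cytokine that lowers food intake through a receptor in the hindbrain (chr19:18374731-18389176, plus strand). It had 617 and 563 normalised counts under vehicle and 2891 and 2566 under octanoate. The lower octanoate library was several times the higher vehicle library. GDF15 rose 4.61-fold (4.13 to 5.16; log2 difference 2.21 ± 0.08, limma adjusted p = 2.22e-16) and ranked 69 of 20250 by the size of its rise. Its interval, 2.04 to 2.37 on the log2 scale, lay above those of the other 8 tested genes.

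FGF21 encodes a secreted metabolic hormone best known from liver (chr19:48755559-48758333, plus strand). It was barely detected, with 1.96 and 3.88 normalised counts under vehicle (2 and 4 reads) and 18.3 and 14.1 under octanoate (19 and 13 reads). Both octanoate libraries were above both vehicle libraries, but the mean of 9.55 was under the filter and the gene was not tested. Summed over libraries, 6 reads under vehicle stood against 32 under octanoate. After scaling by the size factors implied by the normalised counts, the ratio was 5.58. Its exact 95% counting interval, 2.30 to 16.3, covers counting error and no difference between cultures. In limma without the filter the adjusted p was 0.0796. The authors' deposited table gives FGF21 a log2 fold change of 2.47 and an unadjusted p of 0.0182, with the adjusted p set to exactly 1. That table holds 16253 such genes, all with means of 22.6 or less, and its other adjusted p-values equal a Benjamini-Hochberg adjustment without them, so FGF21 was outside the authors' adjustment. FGF21 is a known target of PPARalpha as well as of ATF4, and 10 of 13 PPAR targets were called higher here, as given below. Their part in the FGF21 value was not tested.

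**Figure D2:**
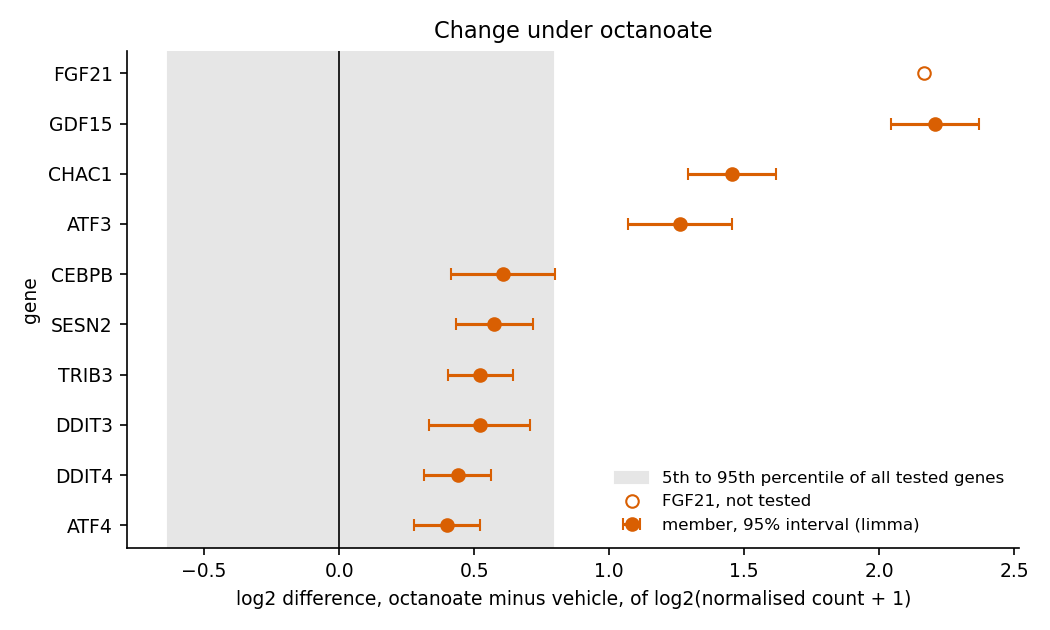
Log2 difference of each gene, octanoate minus vehicle, with the 95% interval of the limma fit (orange), and FGF21 as an open circle because it was not tested. The grey band spans the 5th to 95th percentile of all tested genes, -0.63 to 0.79. GDF15, CHAC1 and ATF3 lie to the right of it, and the intervals of the other 6 tested genes overlap one another.

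By size the tested genes fell into 3 steps. GDF15 stood alone at the top, CHAC1 and ATF3 followed with overlapping intervals, and CEBPB, SESN2, TRIB3, DDIT3, DDIT4 and ATF4 formed the lowest step with log2 differences between 0.40 and 0.61 and intervals that all overlapped. Within the whole tested set, 8.21% of genes rose more than CEBPB and 14.9% rose more than ATF4. In 9 of the 10 genes replicate 1 was above replicate 2 in both groups. FGF21 was the exception, in its vehicle libraries. The same order held for 39.9% of all tested genes and for 53.5% of those averaging 500 or more, and its part in the results was not tested beyond the left-out libraries and the replicate block.

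Levels between genes were compared per kilobase of exon sequence in GENCODE 29. Under vehicle ATF4 was highest at a mean of 11149 normalised counts per kilobase, followed by DDIT4 at 3250, CEBPB at 2043 and TRIB3 at 1439. DDIT3 at 487, SESN2 at 388, CHAC1 at 302, GDF15 at 283, ATF3 at 87.3 and FGF21 at 2.22 made up the lower part. Of neighbours in that order, the ranges of CHAC1 and GDF15 overlapped and no others did. Under octanoate the top 4 kept their order, but GDF15 at a mean of 1307 and CHAC1 at 827 stood above DDIT3 at 697 and SESN2 at 578 normalised counts per kilobase. Together the 10 genes held 0.0651% and 0.0626% of reads under vehicle and 0.0930% and 0.0885% under octanoate, more of it from ATF4 than from the other 9 in each library.

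The closest relatives of the 10 genes did not move as one block. Of 12 paralogues, 10 were tested, 3 were called higher, 4 lower and 3 not called, with a median log2 difference of -0.01. Among the leucine zipper factors, ATF5, the closest relative of ATF4 and itself linked to mitochondrial stress, had 885 and 855 normalised counts under vehicle and 568 and 634 under octanoate. It fell by 0.54 as a log2 difference (SE 0.09, limma adjusted p = 3.45e-05), with an interval that did not meet that of ATF4. JDP2, a repressor related to ATF3, rose by 0.56 (limma adjusted p = 0.00012). CEBPG, another partner of ATF4, went from 3461 and 3261 to 4969 and 4853 normalised counts and rose by 0.55 (limma adjusted p = 1.51e-07). CEBPD fell by 0.73 (limma adjusted p = 0.000507), a call lost without vehicle 1. CEBPA was called at 0.81 (limma adjusted p = 0.0186), but its groups overlapped and the call was lost without vehicle 2 or octanoate 1.

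Among the relatives of the output genes, TRIB2, a pseudokinase like TRIB3, went from 9973 and 9221 to 5978 and 5957 normalised counts and fell by 0.68 (SE 0.06, limma adjusted p = 2.25e-09). SESN3, a sestrin better known as a FOXO target, went from 1196 and 1174 to 634 and 667 and fell by 0.86 (limma adjusted p = 7.29e-09). The fall of both stood clear of the rise of their relatives TRIB3 and SESN2, and vehicle and octanoate libraries did not overlap in any of the 4 genes. SESN1, a p53 target, differed by -0.08 (95% interval -0.24 to 0.08), TRIB1 by 0.06 (-0.07 to 0.19) and CHAC2, which degrades glutathione slowly and is not known as an ATF4 target, by 0.12 (-0.03 to 0.27). None of these 3 passed the test. CEBPE and DDIT4L were under the filter, the latter with between 0 and 8.66 normalised counts. The difference between a member and its paralogue was not itself tested.

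**Figure D3:**
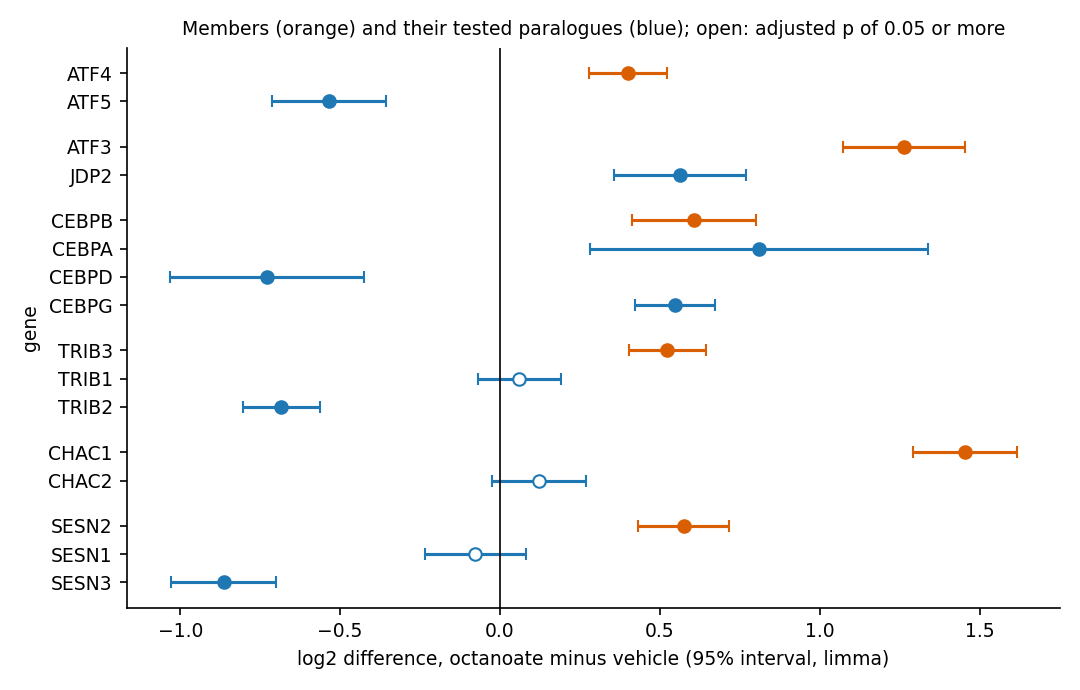
Log2 differences, octanoate minus vehicle, with 95% limma intervals for 6 members (orange) and their tested paralogues (blue), grouped by family; open circles did not pass the test. ATF5, CEBPD, TRIB2 and SESN3 lie left of 0 while the member of each of those families lies right of it.

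Upstream of ATF4, 14 genes for the eIF2alpha kinases, the phosphatase subunits, the exchange factor and the mitochondrial relay were tested, and 2 were called higher and 3 lower, with a median log2 difference of -0.03. PPP1R15B, a subunit that directs dephosphorylation of eIF2alpha, rose by 0.27 (limma adjusted p = 0.000873), and EIF2B1, a subunit of the exchange factor, fell by 0.27 (limma adjusted p = 0.000942). Both calls held when any 1 library was left out. OMA1, the protease that starts the mitochondrial relay, was called at -0.24 (limma adjusted p = 0.0103) and lost the call without vehicle 1 or octanoate 1. The stress-induced subunit PPP1R15A, also known as GADD34, was called at 0.19 (limma adjusted p = 0.0228) and lost it without vehicle 2, octanoate 1 or octanoate 2. EIF2B4, the fifth of these calls, was chosen after its values were seen; it was called at -0.18 (limma adjusted p = 0.0465) and lost it without vehicle 1, octanoate 1 or octanoate 2. The 4 kinase genes EIF2AK1, EIF2AK2, EIF2AK3 and EIF2AK4, named as a group after their values were seen, did not pass the test, with log2 differences of -0.03, 0.12, -0.18 and -0.09. RNA levels of the kinases say nothing of their activity, which was not measured.

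The lists of downstream targets came from general knowledge of the pathway, but earlier results of these data were already known at that point. The shares called therefore describe these lists only. In 4 such lists, 46 further target genes of ATF4 or DDIT3 were tested. Of these, 30 (65.2%) were called higher and 1 (2.2%) lower, with a median log2 difference of 0.19, against 16.2% higher and 13.7% lower over all tested genes. Of the 30, 19 kept the call when any 1 library was left out, 18 were called without the filter and 8 with a variance prior without a trend. The rises were mostly small, and 2 genes, ASNS and ADM2, rose more than 2-fold. The paralogues above, with 3 called higher and 4 lower, ATF5 among the lower, stand outside these 4 lists.

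Of 10 enzymes of amino acid and one-carbon metabolism, 6 were called higher and 0 lower, with a median of 0.28. ASNS, the asparagine synthetase whose promoter stretch is printed above, went from 67.7 and 101 to 206 and 250 normalised counts and rose 2.73-fold (log2 difference 1.45 ± 0.17, limma adjusted p = 6.50e-07). It was a low-count gene next to MTHFD2, the mitochondrial folate enzyme, which went from 15523 and 15804 to 22733 and 22322 and rose by 0.52 (limma adjusted p = 8.53e-08). CTH, which makes cysteine from cystathionine, rose by 0.63 and PSAT1, of serine synthesis, by 0.38. Of 8 amino acid transporters, 6 were called higher and 0 lower, with a median of 0.28. The 2 chains of the large neutral amino acid exchanger, SLC7A5 and SLC3A2, rose by 0.40 and 0.35, and the neutral amino acid carriers SLC1A4 and SLC1A5 by 0.40 and 0.33. With a variance prior without a trend, 2 of the enzymes, MTHFD2 and CTH, and 0 of the transporters were called higher. ASNS lost its call under that prior (limma adjusted p = 0.0574).

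Of 13 genes for tRNA charging and export, 9 were called higher and 0 lower, with a median of 0.18. SARS, GARS, CARS and MARS, which charge serine, glycine, cysteine and methionine, rose by 0.40, 0.31, 0.25 and 0.22. This count depended on the libraries and the settings, since 3 were called without vehicle 2, 3 without octanoate 1 and 4 without octanoate 2, 2 without the filter and 0 with a variance prior without a trend. MARS lost its call without vehicle 2 or octanoate 1. Of 15 other targets, 9 were called higher and 1 lower, with a median of 0.22. ADM2, a peptide hormone of the calcitonin family, went from 356 and 371 to 1025 and 1061 normalised counts and rose 2.86-fold (log2 difference 1.52 ± 0.09, limma adjusted p = 1.88e-12). The secreted glycoprotein STC2 rose by 0.81, the lipoprotein receptor VLDLR by 0.79 and PMAIP1, which encodes the cell death protein NOXA, by 0.63. The receptor kinase DDR2, the single gene called lower and named for that after its values were seen, was at -0.17 and lost the call without vehicle 1, vehicle 2 or octanoate 1.

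**Figure D4:**
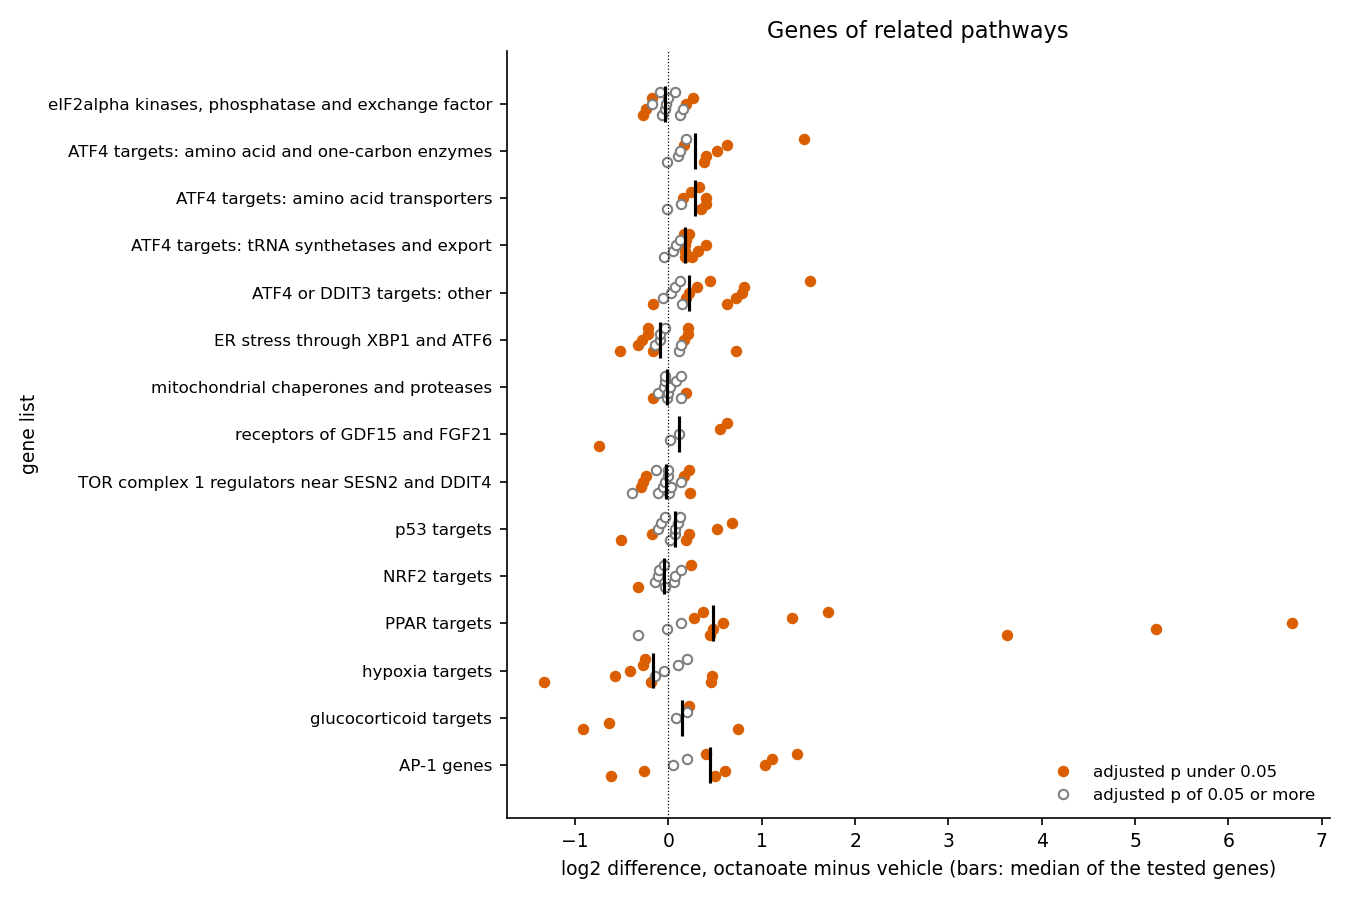
Log2 differences, octanoate minus vehicle, of the tested genes of 15 lists, 1 point per gene, filled orange where the adjusted p was under 0.05, with a bar at each list's median. The 4 ATF4 target lists have medians between 0.18 and 0.28, the ER stress list has points on both sides of 0, and the PPAR list reaches 6.68.

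The other arms of the ER stress response were read from their own genes. Of 16 genes of the XBP1 and ATF6 arms, 4 were called higher and 6 lower, with a median of -0.09. HSPA5, the ER chaperone BiP, went from 99278 and 93446 to 79041 and 79858 normalised counts and fell by 0.28 (limma adjusted p = 0.00151). CALR, calreticulin, fell by 0.33 (limma adjusted p = 0.000268) and CRELD2 by 0.52 (limma adjusted p = 5.43e-06). ERN1, the gene of the ER sensor IRE1, went the other way and rose by 0.72 (limma adjusted p = 3.17e-07). These 4 calls held when any 1 library was left out, but the counts did not. Called higher were 1 gene without vehicle 2, 1 without octanoate 1, 2 without vehicle 1 and 2 without octanoate 2, and called lower were 3 without vehicle 1. Without the filter 1 was called higher and 3 lower, and with a variance prior without a trend 1 higher and 0 lower. Of 12 mitochondrial chaperones and proteases, 1 was called higher (CLPP, 0.18) and 1 lower (SPG7, -0.17). SPG7 lost its call whichever library was left out, and CLPP without vehicle 2 or octanoate 1, while 2 genes were called higher without vehicle 1. LONP1 and TRAP1, next in order of p, were at 0.14 and 0.13 and did not pass the test.

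The receptors of the 2 secreted outputs were measured in the same cells. GFRAL, the GDF15 receptor, had between 0 and 1.96 normalised counts and its co-receptor RET between 2.91 and 10.8, and neither was tested. For FGF21, the co-receptor KLB went from 84.4 and 90.1 to 46.2 and 57.4 and fell by 0.75 (SE 0.21, limma adjusted p = 0.00792), a call lost without vehicle 2 or octanoate 1. The receptors FGFR1 and FGFR4 rose by 0.55 and 0.63 (limma adjusted p = 4.61e-07 and 1.86e-07), and FGFR3 at 0.12 did not pass the test. Around SESN2 and DDIT4, 16 genes of TOR complex 1 control were tested, and 3 were called higher and 3 lower, with a median of -0.02. RHEB at 0.22, WDR59 at 0.24, RRAGB at -0.29 and RRAGC at -0.24 had the smallest p. Each of the 6 calls was lost without at least 1 library, and the counts fell to 1 higher without vehicle 2 or octanoate 1, and to 0 lower without vehicle 1 and 1 without vehicle 2.

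Several of the 10 genes also answer to other regulators, and the known targets of those were read beside them. ATF3, SESN2, DDIT4 and GDF15 are also p53 targets. Of 14 other p53 targets, 4 were called higher and 2 lower, with a median of 0.07. CDKN1A, the cell cycle inhibitor p21, rose by 0.52 and PLK3 by 0.68, TP53INP1 fell by 0.51, and MDM2 was called at 0.19 but lost the call without vehicle 1, vehicle 2 or octanoate 2. The count of p53 targets called higher was 2 without vehicle 1, 2 without vehicle 2 and 2 without octanoate 2, and the count called lower was 1 whichever library was left out. ATF3 also belongs with the AP-1 factors. Of 10 AP-1 genes, 6 were called higher and 2 lower, with a median of 0.45. JUN, a partner of ATF3, went from 1648 and 1514 to 4221 and 4015 normalised counts and rose 2.60-fold (limma adjusted p = 5.34e-14). FOSL1 rose by 1.03, FOSL2 by 0.61 and BATF3 by 1.11. The count called lower was 1 without vehicle 1 or octanoate 2.

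DDIT4 is also a target of hypoxia and of glucocorticoids. Of 12 hypoxia targets, 2 were called higher and 6 lower, with a median of -0.16, and 3 were called lower without vehicle 1. Without the filter 2 were called higher and 3 lower, and with a variance prior without a trend 1 higher and 0 lower, so the excess of lower calls depended on these settings. VEGFA, which ATF4 can also raise, rose by 0.45 and PDK1 by 0.47, while the glucose carrier SLC2A1 fell by 0.41 and ADM by 0.57. Of 6 glucocorticoid targets tested, 2 were called higher and 2 lower. KLF9 fell by 0.91 and SGK1 by 0.64, DUSP1 rose by 0.74, and PER1 was called at 0.22 but lost the call without vehicle 1, vehicle 2 or octanoate 1. Of 10 NRF2 targets, 1 was called higher and 1 lower. NQO1 fell by 0.32, and SLC7A11, the cystine carrier shared with the ATF4 list, was called at 0.24 but lost the call without vehicle 1 or octanoate 2. Without octanoate 1, 2 NRF2 targets were called lower. ME1 at 0.13 and HMOX1 at -0.14 came next by p and did not pass the test.

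Of 13 PPAR targets, which answer to fatty acids, 10 were called higher and 0 lower, with a median of 0.48, and all 10 calls held when any 1 library was left out. ANGPTL4 went from 506 and 301 to 15245 and 13952 normalised counts (log2 difference 5.22), and FABP4 from 10.8 and 5.81 to 1007 and 842 (6.68). PLIN2, which coats lipid droplets, rose by 1.71, and PDK4, which shuts down pyruvate oxidation, by 1.32. The rises of ANGPTL4 and FABP4 exceeded that of GDF15. The part of these regulators in the rise of any of the 10 genes was not tested.

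For the 3 genes that rose more than 2-fold, the genes with the most similar pattern were found by the distance between log2(normalised count + 1) values over the 4 libraries, each gene centred on its vehicle mean, among the 13473 genes averaging 100 or more. The nearest to ATF3 were PLAUR, the urokinase receptor, and JAG1, a Notch ligand, at distances of 0.08 and 0.10. Nearest to CHAC1 were RP11-277B15.2 at 0.05, PTGES, a prostaglandin synthase, at 0.05 and S1PR1, a lipid receptor, at 0.06. Nearest to GDF15 were CD36, a fatty acid carrier, at 0.07 and HES7 at 0.10. With 4 libraries in 2 groups this likeness reflects mainly the size of the rise, and none of the genes named here belongs to the lists above.

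Under the alternative settings of the analysis each tested gene kept a positive difference, and the size moved most in CEBPB, from 0.42 to 0.80. With any 1 library left out, 1 group holds 1 library, and the variance comes almost wholly from other genes. The prior degrees of freedom were 18.4 and 18.5 without a vehicle library and infinite without an octanoate library. Calls in those fits therefore say little of a gene's own spread. In the fit as reported, with no library left out, the prior degrees of freedom were 21.15. Most of each gene's variance there also came from other genes. With a variance prior without a trend, which shares less information across genes at a like level, 5 of the 9 stayed called, and ATF4 (adjusted p = 0.0649), DDIT3 (0.0861), CEBPB (0.15) and DDIT4 (0.0649) did not, while 1625 of all genes were called in place of 6048. With the same prior the calls higher and lower were 1 and 2 for the paralogues, 1 and 0 for the p53 targets, 3 and 0 for the AP-1 genes, 0 and 2 for the glucocorticoid targets, 7 and 0 for the PPAR targets and 1 and 0 for the receptors. The eIF2alpha, mitochondrial, TOR complex 1 and NRF2 lists had 0 calls in either direction under that prior. Of the 9 genes inside the adjustment of the authors' deposited table, 8 had an adjusted p under 0.05, all but CEBPB, against 25.1% of the 17280 genes adjusted there.

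**Figure D5:**
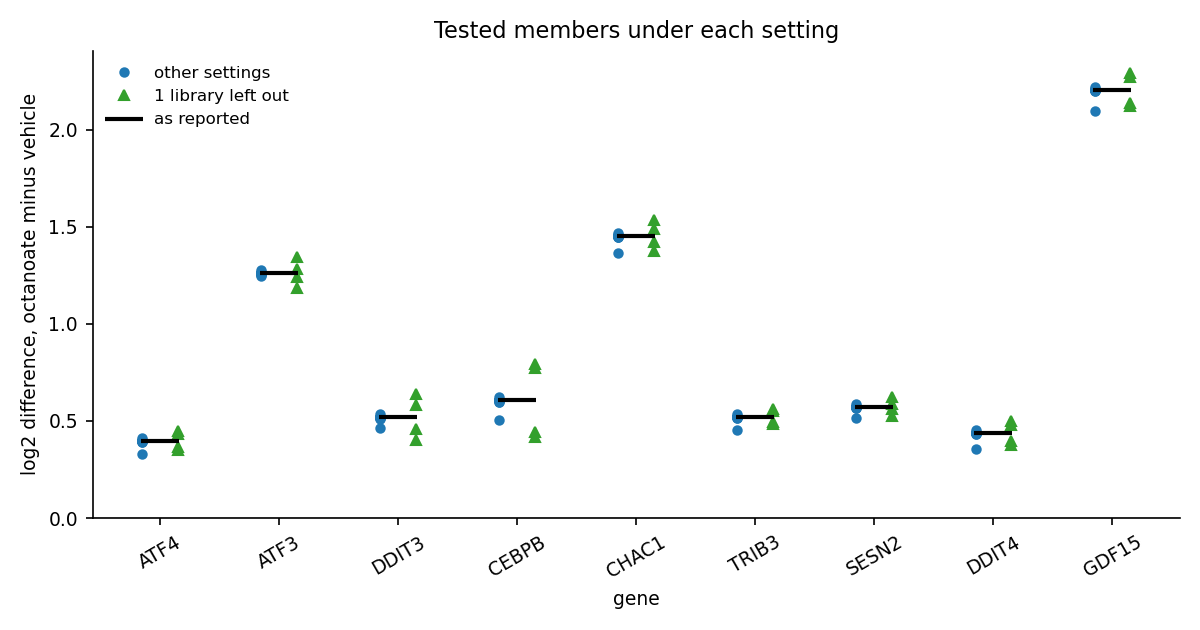
Log2 difference, octanoate minus vehicle, of the 9 tested genes as reported (black line), under the other settings (blue circles) and with 1 library left out (green triangles). All points are above 0, and CEBPB has the widest spread, from 0.42 to 0.80.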

How the data were processed

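RNA from 4 A375 libraries, 2 with isopropanol and 2 with octanoate, was sequenced after NEBNext Ultra preparation, per the labels' protocols. The submitters' processing notes name bcl2fastq 2.17, Trim Galore, STAR 2.4, Picard, HTSeq 0.9.1, DESeq2 and the build hg38, with no roles. The annotation and the use of strand are not given in the sources used here. The authors deposited a signal per gene and library, a count normalised by DESeq2 per the file's name, for 56832 genes. All values were whole multiples of the value of 1 read (100%, tolerance 1e-06), so whole reads were recovered. The authors also deposited a comparison per gene, with its p-value, a log2 fold change, a score for the test and for the standard error, and the mean signal, used as their values.

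Normalised counts were tested with limma 3.58.1 (R 4.3.3; trend in the variance prior) on log2(normalised count + 1), which understates changes of low genes, two-sided, with a mean of at least 10. With 2 libraries per group, exact permutation cannot reach a p below 0.333. The treatment was the only term. As alternatives, the fit was run with pseudocounts of 0.5 and 5, no filter, a minimum mean of 50, TMM factors, columns scaled to equal totals, no trend in the variance prior, the replicate block and each library left out, and with edgeR 4.0.16 (quasi-likelihood) and DESeq2 1.42.0 on recovered reads. After the data were seen, 2 were added: genes found in GENCODE 29 by name (74.8% of those tested), and the same with trends on GC content and length removed.

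The 10 genes and the 16 lists of related genes were chosen with earlier results of these data known. All 10 genes, every paralogue, up to 4 tested genes with the smallest p in each other list, and 3 genes of like pattern for each gene that rose at least 2-fold were named; others were chosen after their values were seen. Of the genes of like pattern, 2 are not reported here. PPP1R15A, SLC7A11, BBC3 and SESN1 each stand in 2 lists. Overlaps and lengths came from GENCODE 29, shared sequence from blastn 2.17.0 (at least 95% identity over 100 bases) and promoter windows from RefSeq (GRCh38.p14), in which all 10 genes were found. Counting intervals cover counting error only.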

Additional observations from a re-analysis of the deposited data

How the results depend on the processing

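The 9 tested genes kept the direction of their difference under each of the 16 alternatives, and FGF21 under the 7 computed for it. The count called higher was 9 of 9 in 14 of them. It was 8 of 10 without the filter, where FGF21 was tested too and was not called, and 5 of 9 with a variance prior without a trend. The number of all genes called was 6048, and 2595 without the filter, 1625 without the trend and 8376 with the replicate block. It lay between 4295 and 4757 when 1 library was left out. ATF4 targets called higher numbered 30, and 18 without the filter, 8 without the trend, 35 with the replicate block and between 20 and 28 when 1 library was left out. The 1 target called lower became 0 without the filter, with TMM factors and without the trend, and between 0 and 1 when 1 library was left out. Of calls over all genes, 54.1% were higher, against 67.4% without the trend, 64.5% without vehicle 1 and 42.2% with trends on GC content and length removed. The causes were not tested.

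The replicate block kept 9 of 9 genes called. The labels do not say what the numbers mark, and with 2 pairs the correlation of replicate differences was 0.13 over all tested genes and 0.38 over those with a mean of at least 500. With 2 libraries a group, FGF21 at 2 to 19 reads is limited by depth, and the log2 difference moved from 2.2 to 1.42 with a pseudocount of 5.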
